A study of Homo sapiens with 6 samples.

Results

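The USP genes encode the ubiquitin-specific proteases, the largest family of deubiquitinases. All genes whose symbol is USP followed by a number, with an optional X or L, were taken as members, without the multicopy USP17L genes, and this gave 50 of the 26485 genes listed. THP1 cells, a human acute monocytic leukemia line, were exposed for 6 h to withaferin A (WFA), a steroidal lactone, or to its vehicle DMSO. Each group has 3 RNA-seq libraries from independent experiments on this 1 cell line, so the values describe THP1 cells only. The WFA concentration is read here as 1 μM. The sample labels print the unit as mM, but the methods and the figure legends for these libraries give μM throughout. The counts themselves cannot show the concentration.

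Most members are cysteine proteases that cut ubiquitin from proteins or take apart ubiquitin chains. Removal of a chain can spare a protein from the proteasome, while removal of single ubiquitins from histones, receptors or signaling proteins changes their activity or location. Members differ in where they sit in the cell, which partner subunits they need and which proteins they act on, and a few lack part of the usual catalytic site.

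Reads per gene were scaled to CPM (the count scaled by library size) using TMM factors, and the WFA and DMSO libraries were set against each other by the quasi-likelihood test of edgeR. A gene was called higher or lower at a Benjamini-Hochberg adjusted p under 0.05 over all 12854 genes tested. Library totals ran from 11006035 to 13872810 counts. All 14 monocytic marker genes listed were tested, with a summed level of 3180 to 3820 CPM with DMSO and 2810 to 3670 CPM with WFA, and 5 were lower and 1 higher. Erythroid markers were at 0, and T cell markers summed to at most 0.499 CPM. Fibroblast markers summed to at most 0.916 CPM with DMSO and to 8.69 to 12.6 CPM with WFA as COL1A1 rose, with COL3A1 at or near 0. B cell markers summed to at most 1.85 CPM and epithelial markers to at most 0.979 CPM. The part of these marker changes in the USP results was not tested. In bulk RNA, fewer cells expressing a gene and less RNA per cell cannot be told apart.

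Single members moved in both directions with WFA, while the median member stayed near 0. USP53, USP45, USP27X and USP30 showed the largest rises, whereas USP31, USP36, USP10 and USP18 showed the largest falls. Of the 46 members tested, 12 (26.1%) were called higher and 11 (23.9%) lower, beside 25.8% and 24.7% of all genes tested, so the shares called were near the background. The median log2 fold change over the tested members was -0.01, against 0.02 over all tested genes. Within the 3 same-numbered pairs of libraries the family medians were 0.01, -0.05 and -0.05 on the log2 scale.

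Of the 46 members tested, 5 were called over 2-fold higher and 2 over 2-fold lower. Among all genes tested, 8.11% were called over 2-fold higher and 5.2% over 2-fold lower. The 2 groups of libraries did not overlap in CPM for 26 of the 46 members, or 56.5%, compared with 58.1% of all genes tested. All 23 called members were among these 26. Their shared direction in each of the 3 pairs follows from the lack of overlap and is not separate evidence. The other 3 were USP38, USP7 and USP34. Reads of all members together made up 0.364% to 0.399% of the library with DMSO and 0.321% to 0.344% with WFA, as shares of unscaled counts. With TMM factors the groups lay closer, at a summed 3581.2 to 3803.8 CPM with DMSO and 3300.9 to 3571.9 CPM with WFA.

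**Figure D1:**
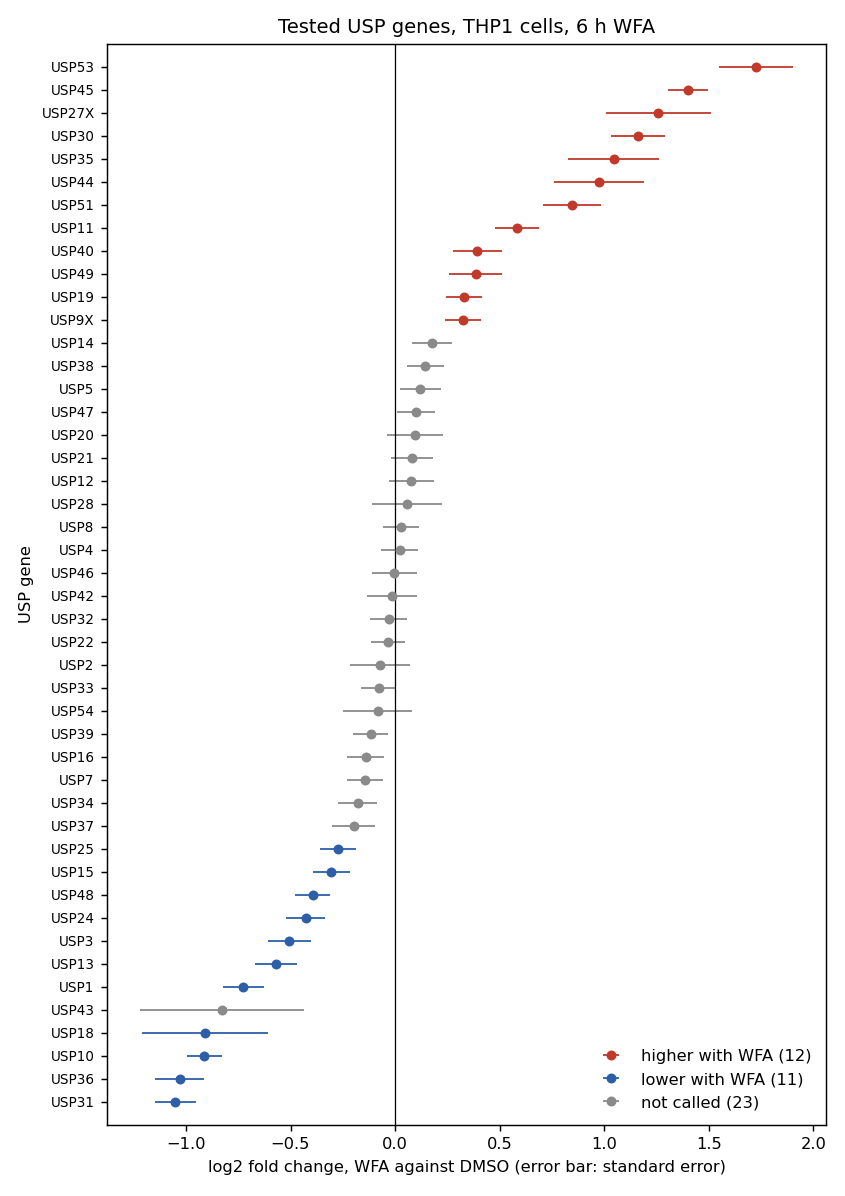
Log2 fold change with WFA against DMSO for the 46 tested USP genes, ordered by size, with horizontal bars for the standard error of the fit over 3 libraries per group. The 12 genes called higher run from 0.33 to 1.73 and the 11 called lower from -1.05 to -0.27, and 23 genes were not called.

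Not all members could be tested, and 4 of the 50 fell out. USP6, a hominoid gene related to USP32, and USP26 and USP29, which are germline genes, had 0 counts in every library. USP50 had 0, 1 and 1 counts with DMSO and 0, 2 and 4 with WFA. A limit of 3 counts corresponds to 0.211 to 0.279 CPM in these libraries, and it covers counting error only, so levels under it were not detectable at this depth.

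The histone deubiquitinases are described first. Of the 8 members placed in this group, all tested, 4 were called higher (USP27X, USP44, USP51 and USP49) and 1 lower (USP3). The other 3 were not called (USP16, USP21 and USP22). Of all tested genes, 25.8% were called higher and 24.7% lower. The list is short, and each member was put in a single role group, so the count depends on placement. USP22 is the catalytic subunit of the SAGA deubiquitinase module, which removes ubiquitin from histone H2B, and USP27X and USP51 are its close relatives that work with the same adaptor subunits.

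USP27X had 2.39, 1.89 and 1.5 CPM in the DMSO libraries and 5.55, 3.70 and 4.74 CPM in the WFA libraries. Each WFA library was above each DMSO library, and the change was 1.26 on the log2 scale (standard error 0.25, edgeR adjusted p = 0.000707). It is among the scarcer members, and its antisense neighbor USP27X-AS1, at 2 to 16 counts per library, was also called higher (log2 fold change 1.23, edgeR adjusted p = 0.0279). That call of USP27X-AS1 was lost with DESeq2 (adjusted p = 0.113) and without DMSO replicate 2 (0.82), DMSO replicate 3 (1.25), WFA replicate 1 (1.13) or WFA replicate 3 (1.26, all log2 fold changes). USP51 had 13.2, 11.1 and 10.7 CPM with DMSO and 21.6, 18.6 and 23.1 CPM with WFA, without overlap, and rose by 0.85 on the log2 scale (standard error 0.14, edgeR adjusted p = 0.000124). USP22 itself stood at 142 ± 3.66 CPM (SD, n = 3) with DMSO and 139 ± 6.78 CPM with WFA, with a 95% interval of -0.21 to 0.14 for its log2 fold change.

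USP44, which acts on H2B and takes part in the mitotic checkpoint, had 2.46, 1.97 and 2.50 CPM with DMSO and 4.33, 4.51 and 4.83 CPM with WFA. The groups were well apart, and the change was 0.97 on the log2 scale (standard error 0.22, edgeR adjusted p = 0.00158). Its relative USP49, another H2B protease, changed by 0.38 (edgeR adjusted p = 0.0197), and this call was lost without DMSO replicate 1, DMSO replicate 2 or WFA replicate 1 (log2 fold change 0.33, 0.35 and 0.31). USP3, which acts on ubiquitinated H2A, moved the other way. It had 64.9, 81.4 and 73.8 CPM with DMSO and 50.6, 56.5 and 47.7 CPM with WFA, all WFA libraries being lower, and fell by 0.51 on the log2 scale (standard error 0.10, edgeR adjusted p = 0.000885).

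**Figure D2:**
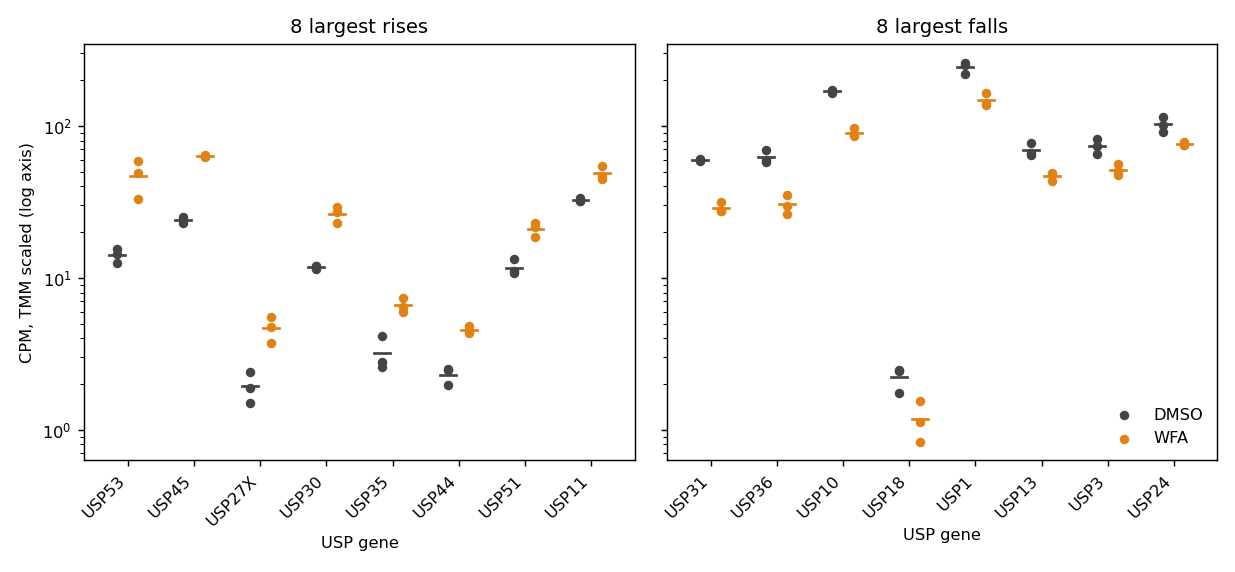
CPM in each library, on a log axis, for the 8 called members with the largest rises (left) and the 8 with the largest falls (right), where points are single DMSO or WFA libraries and short lines the mean of 3. No WFA library overlaps a DMSO library in any of the 16 genes, from USP53 at 12.5 to 15.5 CPM with DMSO and 32.9 to 58.8 CPM with WFA, to USP31 at 58.5 to 60.9 and 27.6 to 31.3 CPM.

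Members placed on membranes and organelles had 2 calls, both higher, among 6 tested, a share near the 25.8% of all tested genes called higher. USP30, anchored in the mitochondrial outer membrane where it opposes parkin-driven mitophagy, had 12, 11.4 and 12 CPM with DMSO and 29.1, 23.0 and 27.1 CPM with WFA. It rose 2.23-fold, 1.16 on the log2 scale (standard error 0.13, edgeR adjusted p = 3.14e-06), with the DMSO libraries close together and all WFA libraries above them. USP19, an endoplasmic reticulum protease, rose from 71.0 ± 4.03 to 89.2 ± 3.98 CPM (SD, n = 3), which is 0.33 on the log2 scale (edgeR adjusted p = 0.00498). The endosomal USP8 and the relatives USP20 and USP33, along with USP32, were not called, with log2 fold changes from -0.08 to 0.10.

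The largest change of the family was in a member usually listed as lacking a full catalytic site. USP53, a tight junction protein that was long annotated as inactive and for which activity on ubiquitin chains has been described, had 15.5, 12.5 and 14.3 CPM with DMSO and 49.2, 32.9 and 58.8 CPM with WFA. All WFA libraries lay far above the DMSO libraries but were themselves spread, with an SD of 13.1 CPM around a mean of 47.0. The change was 3.31-fold, or 1.73 on the log2 scale (standard error 0.18, edgeR adjusted p = 1.4e-06). The other tested members of this group, USP39 of the spliceosome and USP54, had log2 fold changes of -0.12 and -0.08 and were not called.

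The 10 members placed in none of the role groups used here were USP9X, USP24, USP26, USP29, USP34, USP35, USP37, USP40, USP43 and USP45. Of the 8 of them tested, 4 were called higher and 1 lower, against 25.8% and 24.7% of all tested genes. USP45, a relative of USP16 that acts on the DNA repair nuclease subunit ERCC1, had 22.8, 24.1 and 25.1 CPM with DMSO and 63.2, 62.4 and 64.7 CPM with WFA. It was the most tightly replicated of the large rises, at 2.64-fold and 1.40 on the log2 scale (standard error 0.09, edgeR adjusted p = 1.98e-08). USP35, a relative of USP30 and USP38, had 2.81, 2.60 and 4.16 CPM with DMSO and 6.45, 5.95 and 7.34 CPM with WFA, so that it too had no overlap, and rose by 1.05 (standard error 0.22, edgeR adjusted p = 0.000961). USP9X, a large X-linked protease with many substrates, rose by 0.33 (edgeR adjusted p = 0.0057). USP40 rose by 0.39 (edgeR adjusted p = 0.0109), a call that was lost without DMSO replicate 1 or WFA replicate 3, where the change was 0.30 in both cases.

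USP24, a very large member, was the only one of these 10 called lower. It had 101, 90.6 and 115 CPM with DMSO and 75.2, 74.3 and 78.4 CPM with WFA, all WFA libraries below all DMSO libraries, and fell by 0.43 on the log2 scale (standard error 0.10, edgeR adjusted p = 0.00158).

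Of the members placed in the innate immune group, 3 of 4 tested were called lower and none higher. This is a count on a short list, to be read beside the 24.7% of all tested genes called lower. It also depends on placement, since each member was put in a single role group and members of other groups were not counted here. USP31, described as a regulator of NF-κB signaling, had 60.0, 58.5 and 60.9 CPM with DMSO and 31.3, 27.6 and 27.6 CPM with WFA. Its libraries were close together within each group, and the level fell to 0.483 of that with DMSO (log2 fold change -1.05, standard error 0.10, edgeR adjusted p = 4.97e-07). In GENCODE 29, 25.0% of its exon bases are shared with AC127459.1, a same-strand gene model without a row of its own in the table.

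USP18, which removes the ubiquitin-like ISG15 and is an interferon-induced gene, was scarce. It had 2.46, 2.45 and 1.75 CPM with DMSO and 1.55, 1.13 and 0.837 CPM with WFA, from 9 to 35 counts, and the groups came close without overlapping. The change was -0.91 on the log2 scale (standard error 0.30, edgeR adjusted p = 0.0208). The call was lost with DESeq2 (adjusted p = 0.0736) and without DMSO replicate 1, DMSO replicate 2, WFA replicate 2 or WFA replicate 3, where the change was -0.83, -0.85, -0.87 and -0.73. USP25, a regulator of cytokine and Toll-like receptor signaling, fell by 0.27 (edgeR adjusted p = 0.0168) and was not called without WFA replicate 3 (-0.22). USP38 was not called (log2 fold change 0.14). USP41, a close copy of USP18, has no row, so reads could be shared between them.

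Among members placed in the group of p53, MYC and genome stability, 2 of 6 were called lower and none higher, beside 24.7% and 25.8% of all tested genes. The count depends on placement, since each member was put in a single role group. USP36 and USP1 (lower) and USP45 and USP44 (higher) also act on MYC, DNA repair or mitosis but were counted in other groups. USP10, which binds the stress granule protein G3BP1 and can deubiquitinate p53, had 169, 173 and 165 CPM with DMSO and 87.8, 96.6 and 85.2 CPM with WFA. The WFA libraries were far below the DMSO libraries, a fall of 0.91 on the log2 scale (standard error 0.08, edgeR adjusted p = 5.26e-07). USP48 fell by 0.39 (edgeR adjusted p = 0.00121). USP7, the best known p53 and MDM2 deubiquitinase, had a log2 fold change of -0.14 with a 95% interval of -0.32 to 0.04, and USP28, which spares MYC, had 0.06 with an interval of -0.30 to 0.42.

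The nucleolar member USP36, which also acts on MYC, had 57.6, 59.5 and 69.8 CPM with DMSO and 26.4, 35.2 and 29.8 CPM with WFA. No libraries overlapped, and it fell to 0.490 of the DMSO level, -1.03 on the log2 scale (standard error 0.12, edgeR adjusted p = 4.59e-06). USP42, its relative in the same group, was not called at -0.01.

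USP1, which works with WDR48 to remove ubiquitin from FANCD2 and PCNA in DNA repair, had 253, 220 and 260 CPM with DMSO and 165, 136 and 141 CPM with WFA. It was lower in each WFA library and fell by 0.73 on the log2 scale (standard error 0.10, edgeR adjusted p = 2.32e-05). USP12 and USP46, which use the same WDR48 subunit, were not called, with log2 fold changes of 0.08 and 0.00.

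Of the members that handle free ubiquitin chains or sit on the proteasome, USP13 was called lower and the others were not called. USP13 had 66.0, 64.5 and 77.3 CPM with DMSO and 47.6, 48.8 and 43.5 CPM with WFA, without overlap, and fell by 0.57 (standard error 0.10, edgeR adjusted p = 0.000218). USP5, which disassembles free chains, and USP14, bound to the proteasome, had log2 fold changes of 0.12 and 0.18, with intervals of -0.09 to 0.33 and -0.03 to 0.38.

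USP4, USP11 and USP15 share a DUSP domain and a ubiquitin-like domain and took 3 different courses. USP11 had 32.0, 31.9 and 33.5 CPM with DMSO and 44.6, 47.0 and 54.7 CPM with WFA, all WFA libraries being higher, and rose by 0.58 (standard error 0.10, edgeR adjusted p = 0.000269). USP15, which acts on TGF-β receptor signaling, fell by 0.30 (edgeR adjusted p = 0.00925). USP4 had 192 ± 15.2 CPM (SD, n = 3) with DMSO and 195 ± 11.3 CPM with WFA and was not called.

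Close relatives were then set side by side. The log2 ratio of 2 relatives within a library was compared between groups for 15 pairs in which both genes were tested, and in 10 pairs the ratios did not overlap between groups. For single genes, 58.1% of all those tested did not overlap, and no such share was computed for ratios of other gene pairs. With 3 libraries against 3, a two-sided exact permutation test cannot go below p = 0.1, which all 10 reached (adjusted p = 0.15 over the 15 pairs), so none could pass 0.05. Some pairs share USP4 or USP22 and are not separate evidence.

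The widest gap was that of USP53 to USP54, where the log2 ratio rose from 0.77 ± 0.35 to 2.54 ± 0.41 (SD, n = 3). The log2 ratio of USP16 to USP45 fell from 2.47 ± 0.05 to 0.93 ± 0.10, and that of USP36 to USP42 from 1.62 ± 0.11 to 0.60 ± 0.25. The USP22 to USP27X ratio fell from 6.20 ± 0.29 to 4.90 ± 0.29, still in favor of USP22. Ratios overlapped between groups for USP12 and USP46, USP20 and USP33, USP25 and USP28, USP31 and USP43, and USP2 and USP21.

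**Figure D3:**
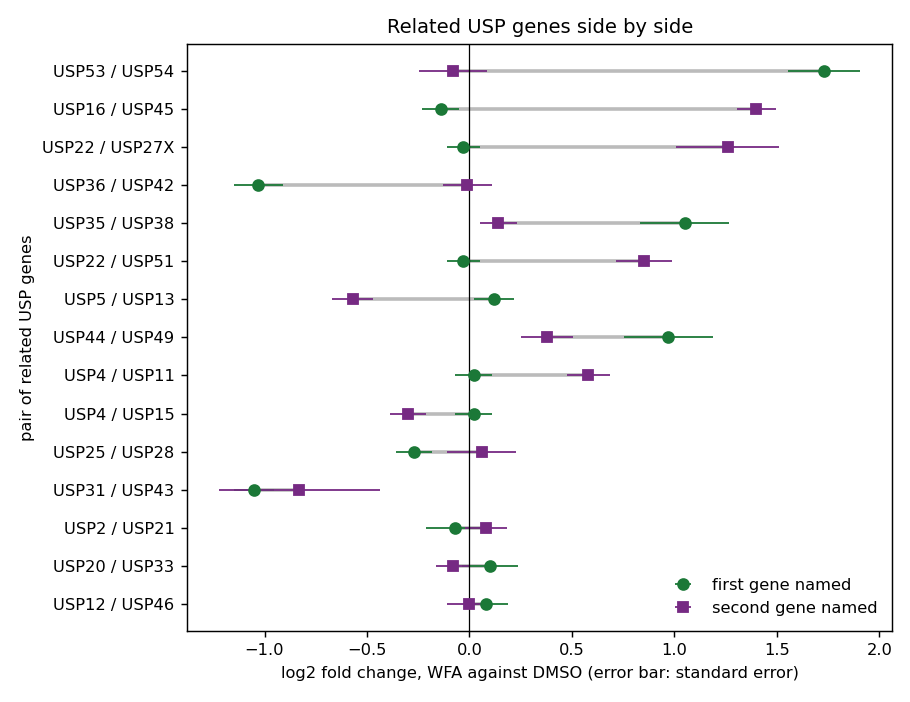
Log2 fold change with WFA for both genes of 15 pairs of related USP genes, with the standard error of the fit as bars and a grey line joining the pair. USP53 (1.73) and USP54 (-0.08) lie farthest apart, and USP12 (0.08) and USP46 (0.00) lie together.

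The partner subunits of these enzymes were read next. Of 12 listed, all tested, 1 was called higher (8.33%, against 25.8% of all tested genes) and 3 lower (25.0%, near the 24.7% of all tested genes). ATXN7L3, the adaptor that activates USP22, USP27X and USP51, rose by 0.63 (standard error 0.09, edgeR adjusted p = 4.8e-05), while ENY2 of the same module was not called at -0.08. GMPS, a partner of USP7, fell by 0.78 (edgeR adjusted p = 4.58e-06), G3BP2, a stress granule protein, by 0.36 (adjusted p = 0.00344) and SART3, which targets USP4 and USP15 to the spliceosome, by 0.32 (adjusted p = 0.0044). WDR48 and G3BP1 were not called, at -0.12 and -0.10.

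A further list holds genes of deubiquitinase folds not named USP, including CYLD and USPL1 of the USP fold. It was drawn up by fold, with JAMM-fold subunits such as COPS5, PSMD7 and EIF3H, and activity on ubiquitin was not checked. Of the 34 tested, 10 were called higher (29.4%, against 25.8% of all tested genes) and 7 lower (20.6%, against 24.7%). Their median log2 fold change was 0.06. By smallest p, the rises were led by OTULIN, which removes linear chains (1.24, edgeR adjusted p = 2.96e-08), JOSD1 (0.96, 5.9e-07), OTUD5 (0.75, 1.74e-05) and CYLD (0.66, 0.000112). The falls were led by OTUD4 (-0.96, edgeR adjusted p = 7.12e-07), TNFAIP3, the NF-κB inhibitor A20 (-1.09, 1.27e-05), BRCC3 (-0.70, 1.27e-05) and the proteasomal UCHL5 (-0.80, 2.37e-05).

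Levels of different genes were compared as CPM per kb of exon. The length is the union of exons over all annotated transcripts of a gene, not that of the transcripts expressed, which was not tested. Ranks therefore depend on the annotation. With DMSO, USP8 had a mean of 143.9 CPM over 19026 bases (rank 27) and USP16 133.8 CPM over 3026 bases (rank 4). With DMSO, USP1 was highest at 57.4, followed by USP10 at 54.0, USP7 at 51.2 and USP16 at 44.2. The libraries of USP1, USP10 and USP7 overlapped, so their order is not resolved. With WFA, USP7 led at 46.4 and USP16 had 40.1, while USP1 had 34.7 and USP10 28.7, which placed them at rank 6 and 7. The WFA libraries of USP1 overlapped those of USP14, USP39, USP4 and USP16, so its rank is not resolved. Those of USP10 lay below all of these but overlapped those of USP22 at rank 8, so the rank of USP10 is not resolved either. USP53 moved from 2.11 to 7.0 CPM per kb (rank 39 to 27 of 46), USP45 from 3.48 to 9.18 (34 to 21) and USP31 from 5.41 to 2.61 (30 to 39).

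Called members that rose started lower than those that fell, with a median DMSO level of 15.3 against 93.5 CPM. Over all tested genes the corresponding medians were 18.8 and 50.4 CPM, so the same order holds beyond the family. Across the 46 members, which share libraries, Spearman's rho between mean level and log2 fold change was -0.29, compared with -0.12 over all tested genes.

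**Figure D4:**
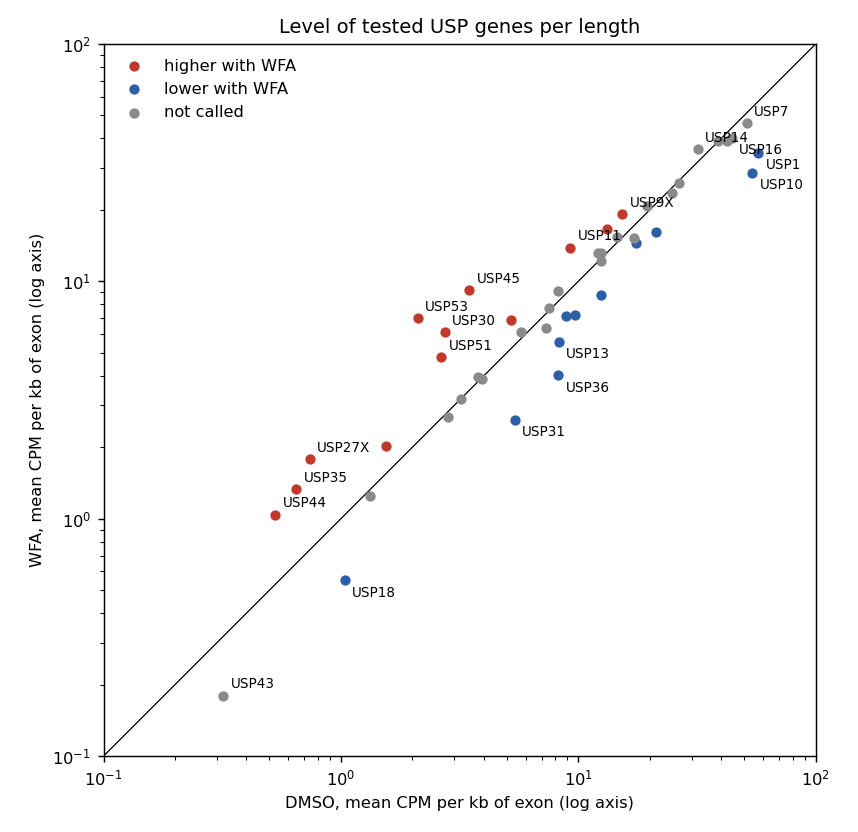
Mean level with WFA against mean level with DMSO for the 46 tested USP genes, in CPM per kb of exon on log axes, with the diagonal marking equal levels. USP53, USP45 and USP30 lie well above the diagonal, while USP1 and USP10 lie below it at the top of the range.

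Promoters were searched for the elements of stress and growth factors, to show what these genes carry near 1 annotated start each. RefSeq GRCh38.p14 windows from 250 bases before to 50 after that start were found for 39 members, and both strands were read. A single window was read per gene, and other starts were not searched. Among the genes printed below, the windows of USP2, USP32 and USP36 lie inside the RefSeq gene span, not at its 5′ end. The NRF2 element TGACNNNGC was in 4 of the 39, against 13.56% of all 27305 promoters and 15.28% of the 9602 of tested genes. For the MYC E-box CACGTG it was 3 of the 39, against 7.43% and 10.19%. The ATF4 element TGATGNAA was in 1, the untested USP50, against 3.67% and 1.67%. No member held the HSF1 heat shock element, against 0.49% and 0.33%. Windows with a match in tested members are printed 5′ to 3′ on the strand of the gene, with the match in capitals and 10 bases on each side.
USP13, chr3:179652978-179653006, plus strand: cagccccgccTGACGCTGCagctgggccg
USP14, chr18:158521-158549, plus strand: tttgcgtgttGCTGCGTCAtcgccagtgg
USP2, chr11:119364226-119364254, minus strand: gccccagcgcTGACGTCGCggggcccgag
USP38, chr4:143184687-143184715, plus strand: cactctccagTGACGCGGCcgtcgccgca
USP28, chr11:113875731-113875756, minus strand: gggccgggatCACGTGaccgacgtct
USP32, chr17:60392120-60392145, minus strand: gcggaagagtCACGTGatccggcatg
USP36, chr17:78840826-78840851, minus strand: gtcgcggtgaCACGTGtgtgaggcgc

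Of the members shown, USP13 and USP36 were called lower and the others not called. None of the 9 members called higher that have a window holds any of these letters there, which says nothing on binding outside it. By GENCODE 29, the 250 bases before the start lie partly or wholly in annotated exons for some genes shown, with 250 bases in exons of USP13 itself, 174 in those of USP14 and 73 in those of USP36, and 195 of USP38 in exons of other genes. Matches there may lie in transcribed sequence.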

How the data were processed

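Raw counts per gene for the 6 libraries are as the authors deposited them, beside scaled counts and their own comparison columns, which were not used. The submitters' processing notes name bcl2fastq 2.19, Trimmomatic, Bowtie2, Picard, featureCounts, DESeq2 and build hg38. The annotation and the treatment of multiply mapped reads are not given in the sources used here. The library kit does not keep strand, so reads of overlapping antisense genes cannot be told apart. USP37 shares 35.4% of its exon bases with VIL1.

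Counts were tested with edgeR 4.0.16 in R 4.3.3 (TMM factors, filterByExpr with minimum count 10, quasi-likelihood test without a block, Benjamini-Hochberg adjustment over 12854 genes). Alternatives were RLE, upper-quartile and total-count scaling, no filter, DESeq2 1.42.0, a robust fit, a replicate block and leaving out each library. Exon lengths and exon overlaps come from GENCODE 29, of the same build, and gene positions and spans from RefSeq. Library log2 ratios used a pseudocount of 0.5.

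Same-group libraries differed by a chi-square per gene of 5.98 to 11.1, beyond sampling noise, so none was counted as a duplicate. Replicate numbers share a label date, and same-numbered libraries deviated together (correlations 0.201, 0.309 and 0.226, others -0.236 to 0.002). With total counts of 11006035 to 13872810, simulated counts over 12725 genes gave recovery of 47% of changes of log2 0.5 and 89% of log2 1. Only 100 genes were changed at each size, whereas 3311 genes were called higher and 3178 lower in the data. The adjustment is stricter where few genes change, so these shares do not give the recovery in this comparison.

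The family, role groups, lists and pairs were chosen with earlier results of these data known. By rule, all called members are named, library values are given for the 8 largest rises and falls, and up to 4 genes of smallest p per direction for other lists. The catalytic box of the proteins was not analysed here.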

Additional observations from a re-analysis of the deposited data

How the results depend on the processing

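Of the 23 calls, 19 held in every alternative and every fit that left out 1 library. The exceptions were USP18, USP25, USP40 and USP49, described above, and USP49 was also not called with total counts (log2 fold change 0.30). With the replicate block, 12 members were higher and 14 lower, all 23 calls held, and USP34 (-0.18), USP37 (-0.20) and USP43 (-0.81) were added as lower. That fit has 2 residual degrees of freedom, and its quasi-likelihood variances were set wholly by the trend over all genes. It called 3877 of all 12854 genes higher and 3708 lower, against 3311 and 3178 in the main fit. With total counts, 11 were higher and 14 lower (USP7, USP34 and USP37 added), and with DESeq2 12 and 10. Over all 12854 genes tested, total counts gave 2760 higher and 3875 lower, so more falls were called over the whole table as well. DESeq2 gave 2956 higher and 3083 lower of 14064 genes. Leaving out 1 library gave 10 to 12 higher and 9 to 11 lower. Over all 13021 to 13078 genes then tested, 2942 to 3176 were higher and 2813 to 3016 lower. The family median was -0.095 with total counts, where the median of all genes was -0.06, and -0.047 to 0.012 without single libraries. USP43, at 6 to 21 counts, was called without DMSO replicate 2 (-1.10).

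Members near 0 changed sign. With total counts these were USP21 (-0.003), USP12 (-0.009), USP28 (-0.028), USP8 (-0.057) and USP4 (-0.062), and with upper-quartile factors USP46 (0.001). Without single libraries the log2 fold change ran from -0.015 to 0.172 for USP12, -0.063 to 0.244 for USP28, -0.029 to 0.077 for USP8, -0.036 to 0.068 for USP4, -0.053 to 0.043 for USP46, -0.085 to 0.036 for USP42 and -0.068 to 0.019 for USP32. The cause was not tested. None of these was called in any fit. Depth limits the scarce members USP18, USP27X, USP43, USP44 and USP35, with 6 to 79 counts per library.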

Other observations

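The 4 tested members on the X chromosome, USP9X, USP11, USP27X and USP51, were all called higher, compared with 8 of 42 members on other chromosomes. This was noticed after the values were seen and was not tested. Over all tested genes, 25.9% of those on the X chromosome and 25.7% of those elsewhere were called higher. Called members that rose also had shorter gene spans than those that fell, with medians of 56618 and 90041 bases, against 29718 and 34201 over all tested genes. Spearman's rho between span and log2 fold change was -0.293 over the 46 members and -0.04 over all tested genes, as a description, since members share libraries.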
